A study of Mus musculus with 8 samples.

Results

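The gene Tfr2, which carries 1 of the 2 mutations of the Hfe-/-xTfr2mut mouse, lies on chromosome 5, and the genes described here are its neighbours. They are 231 genes with 349 probes, out of 16,584 named genes and 25,697 probes on the array. A gene was a member when its RefSeq position (GRCm38.p6) lay within 10 Mb of Tfr2 on either side, at chr5:137569822-137588081. Actb, Hspb1 and the large families of respiratory chain, proteasome, ribosome, potassium channel and DnaJ genes were left aside by their symbols, whatever their values. The members were chosen by position and symbol alone.

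Signals were measured in total RNA of whole brain from 4 Hfe-/-xTfr2mut and 4 Wildtype mice, all male AKR mice aged 13 weeks, on 1 Illumina MouseRef-8 v2 BeadChip. Hfe-/- and Tfr2mut mice had been cross-bred on the AKR background, and the double mutants were homozygous for both mutations. The mutants ate 2% carbonyl iron during the last 3 weeks and the Wildtype mice stayed on a diet of about 0.02% iron, so that genotype and diet cannot be told apart in any comparison below. All mice were perfused with saline before the brain was removed. The values are background-subtracted, cubic-spline-normalized intensities in arbitrary units, each with a detection p-value against the negative control beads of its array. The labels of the 8 arrays alternate along the BeadChip.

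The detected probe of Hfe ran against the labels. Hfe, the gene disrupted in the Hfe-/- allele, has 1 probe detected on all 8 arrays, ILMN_2870696, which gave 337, 324, 314 and 356 intensity units in the arrays labelled Hfe-/-xTfr2mut and 135, 129, 123 and 140 in those labelled Wildtype. It was thus higher, without overlap, in the arrays labelled as lacking Hfe (log2 difference 1.34; limma, adjusted p = 2.29e-05). Its other probe was detected on 0 arrays, and whether either probe reads the part removed from Hfe is unknown here. The groups are therefore named by the labels of their arrays, and each direction below is that of the arrays labelled Hfe-/-xTfr2mut relative to those labelled Wildtype.

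Hfe encodes a protein of the major histocompatibility type that binds transferrin receptors, and Tfr2 encodes transferrin receptor 2, which takes part with it in the sensing of transferrin-bound iron by the liver. Genes that lie close together on a chromosome tend to be inherited together, so that an allele bred into a strain can carry the flanking segment of its source with it. The DNA sequence of the segment in these mice was not analysed here. The neighbourhood of Tfr2 holds genes with many roles, among them Epo, the red cell growth factor, the brain chromatin gene Actl6b, and the block whose human counterpart is deleted in Williams syndrome. A BeadChip probe is a short oligonucleotide that reads a single place in a transcript, so that 2 probes of a gene may report different transcripts of it.

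Of 187 detected member probes, 3 passed limma at a Benjamini-Hochberg adjusted p under 0.05, against 0.17% of all 11,204 detected probes. Brat1 and Cnpy4 rose and 1 of the 2 Taf6 probes fell in arrays labelled Hfe-/-xTfr2mut relative to Wildtype. The Brat1 and Taf6 probes met the detection filter only through the group in which they are high. Brat1 encodes a partner of the DNA damage kinase ATM, Cnpy4 encodes a protein of the canopy family, and Taf6 encodes a subunit of TFIID, the factor that recognises promoters for RNA polymerase II. All 3 lie on the side of Tfr2 with higher coordinates. Taf6 (chr5:138178617-138187451) and Cnpy4 (chr5:138187535-138193894) are neighbours 0.59 and 0.60 Mb away, and Brat1 (chr5:140704763-140719379) lies 3.12 Mb away.

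Taf6 and Cnpy4 stand head to head. Their annotated starts, at 138187451 and 138187535, are 84 bases apart on opposite strands, and a further Taf6 start lies 225 bases inside the gene. The window of RefSeq sequence (GRCm38.p6, a reference that is not of the AKR strain) from 250 bases before to 50 bases after the Cnpy4 start is shown because it holds the starts of both genes that were called in opposite directions, with the 83 bases between the starts in capitals. The first of the listed Brat1 windows is shown beside it because Brat1 had the higher of the fold bounds given below, with its GC boxes (GGGCGG) in capitals. Both are given on the plus strand, Cnpy4 at chr5:138187285-138187584 and Brat1 at chr5:140704761-140705060.
Cnpy4: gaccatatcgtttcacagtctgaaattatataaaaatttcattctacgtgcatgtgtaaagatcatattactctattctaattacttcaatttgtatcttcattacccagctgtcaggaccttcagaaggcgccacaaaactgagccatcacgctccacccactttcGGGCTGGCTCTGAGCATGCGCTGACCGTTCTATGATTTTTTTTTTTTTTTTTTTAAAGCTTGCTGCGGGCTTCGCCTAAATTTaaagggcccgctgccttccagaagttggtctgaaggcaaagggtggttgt
Brat1: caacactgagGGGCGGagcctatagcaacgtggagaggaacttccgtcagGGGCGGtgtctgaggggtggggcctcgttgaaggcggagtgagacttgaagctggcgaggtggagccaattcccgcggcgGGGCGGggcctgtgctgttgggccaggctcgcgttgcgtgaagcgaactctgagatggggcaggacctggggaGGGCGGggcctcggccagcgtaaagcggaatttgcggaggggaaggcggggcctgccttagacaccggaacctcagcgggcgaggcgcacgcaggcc

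Searched on both strands, the Cnpy4 window held 1 TATA box (TATAAA), 0 CCAAT boxes (CCAAT) and 0 GC boxes (GGGCGG). The Brat1 window held 4 GC boxes, 1 CCAAT box and 0 TATA boxes. The motifs do not overlap each other in their letters. Over 32,851 RefSeq windows of the same length, 13.6% held a TATA box, 37.4% a CCAAT box and 35.7% a GC box. These matches describe letters in the reference. A promoter window was found for 199 of the 231 members.

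Brat1 separated the groups completely. Its probe ILMN_2605630 gave 676, 869, 594 and 773 intensity units in Hfe-/-xTfr2mut replicates 1 to 4, and -1.10, 1.83, 17.6 and -0.54 in the Wildtype replicates. The signal was detected on 4 of 4 mutant-labelled arrays and on 0 of 4 Wildtype arrays, and the groups did not overlap (mean 728 ± 119 (SD) against 4.46 ± 8.88, n = 4 each). Set against the lowest signal that counted as detected on each Wildtype array, the mutant-labelled signal was at least 13.2-fold higher (limma, adjusted p = 2.71e-08). Its fitted log2 difference of 5.97 (SE 0.193) depends on the value at which low signals are floored, here 10 units, and is no measure of size. Since the probe was kept through the mutant-labelled arrays alone and 3 of its Wildtype values were set to the floor, its p depends on both choices: with no detection filter the adjusted p was 0.000635 and with a floor of 1 it was 0.000405 (limma). The other Brat1 probe, ILMN_1253955, was detected on 0 of 8 arrays, with 6.47 to 16.2 units in mutant-labelled and -11.8 to 20.3 in Wildtype arrays, so that the rise rests on 1 probe.

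Brat1's neighbours differed far less. Iqce, a gene of the primary cilium, gave 218, 302, 218 and 270 units in mutant-labelled and 152, 199, 208 and 214 in Wildtype arrays, a log2 difference of 0.38 (SE 0.145) at an unadjusted p of 0.0234 (limma, adjusted p = 0.337). Gna12, a G protein alpha subunit gene, gave 102, 117, 102 and 95.6 units in mutant-labelled against 151, 127, 141 and 126 in Wildtype arrays, a difference of -0.39 (SE 0.103; limma, adjusted p = 0.215). Iqce was thus higher and Gna12 lower in every mutant-labelled array than in any Wildtype array, and neither passed the adjusted threshold. Amz1, between Brat1 and Gna12, was detected on 3 mutant-labelled and 3 Wildtype arrays and was not tested, and the Notch modifier gene Lfng was detected on none.

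The Taf6 probe ILMN_1241137 showed the opposite pattern. It gave 28.2, 22.3, 18.8 and 34.7 units in mutant-labelled arrays, none of them detected, and 293, 336, 333 and 293 in Wildtype arrays, all detected. The mutant-labelled signal was at least 4.87-fold lower (limma, adjusted p = 9.76e-07), with means of 26.0 ± 6.95 (SD) and 314 ± 24.4 units (n = 4 each). The probe was kept through the Wildtype arrays alone, and its adjusted p with no detection filter was 0.00298 (limma). Its fitted log2 difference of -3.63 is against signal below detection and is likewise no measure of size, being -2.88 with neqc and -3.33 with a floor of 30. The other Taf6 probe, ILMN_1252302, was detected on all 8 arrays with 140, 116, 150 and 132 units in mutant-labelled and 155, 129, 113 and 119 in Wildtype arrays. Its values overlapped between the groups, with a log2 difference of 0.07 (SE 0.123; limma, adjusted p = 0.845). The fall is therefore a fall of 1 of the 2 probes, and the place of each probe in the Taf6 transcripts was not analysed here.

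Cnpy4 has 1 probe on the array. It gave 190, 216, 151 and 198 units in mutant-labelled arrays and 110, 78.9, 91.4 and 79.8 in Wildtype arrays, with a mean of 188 ± 27.4 (SD, n = 4) in mutant-labelled arrays and an SD of 14.4 (n = 4) in Wildtype arrays. The lowest mutant-labelled array exceeded the highest Wildtype array, and the signal rose 2.09-fold, a log2 difference of 1.07 (SE 0.141) at an adjusted p of 0.00934 (limma). A two-sided exact permutation test gave p = 0.029, the smallest that 4 against 4 arrays allow. The call was lost at an adjusted p of 0.052 (limma) without Hfe-/-xTfr2mut replicate 1 and at 0.050 without Wildtype replicate 2, and the difference was then 1.06 and 1.01. It was lost too with no detection filter (limma, adjusted p = 0.229) and with the replicate number as a block (adjusted p = 0.070).

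Genes that flank Taf6 and Cnpy4 showed smaller differences. Ap4m1, a subunit of the AP-4 vesicle coat whose annotated end overlaps Taf6, gave 145, 156, 144 and 121 units in mutant-labelled and 116, 121, 85.3 and 106 in Wildtype arrays. The lowest mutant-labelled value lay just above the highest Wildtype value, and the log2 difference was 0.41 (SE 0.129; unadjusted p = 0.00898, limma adjusted p = 0.286). Which strand each probe reads is unknown here, so that signal of overlapping genes cannot be told apart. Mblac1, on the other side of Cnpy4, differed by 0.07 (SE 0.095) and Cops6, a subunit of the COP9 signalosome, by 0.13 (SE 0.086), with overlapping groups. Mcm7, a subunit of the replicative helicase that stands between Cops6 and Ap4m1, was detected on 0 of 8 arrays, as was its further neighbour Zfp113.

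**Figure D1:**
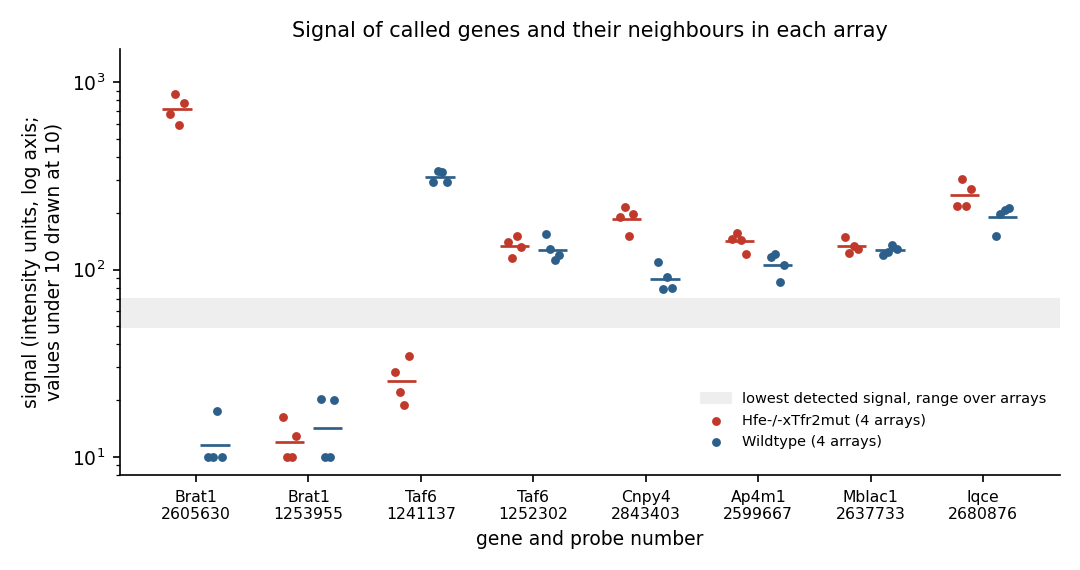
Cubic-spline signal (intensity units, log axis, values under 10 drawn at 10) of each of the 4 Hfe-/-xTfr2mut and 4 Wildtype arrays for probes of Brat1, Taf6, Cnpy4 and neighbours. Points are arrays, bars are means of the log2 values and the grey band is the range over arrays of the lowest detected signal; Brat1 ILMN_2605630 and Taf6 ILMN_1241137 lie on opposite sides of the band in the 2 groups, whereas Taf6 ILMN_1252302 overlaps.

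Tfr2 itself could not be followed. Its probe ILMN_1227831 gave 5.74, 9.82, -0.05 and -5.13 units in mutant-labelled and 1.13, 2.35, 9.13 and 4.08 in Wildtype arrays. Its probe ILMN_2450491 gave 19.6, 12.5, 24.2 and 26.3 units in mutant-labelled and 31.3, 43.0, 21.1 and 43.7 in Wildtype arrays. Neither was detected on any array, so that Tfr2 checks the labels of these libraries in neither direction. The iron and erythroid members were otherwise Epo, also detected on 0 of 8 arrays, and Eif2ak1, the haem-regulated kinase of translation initiation. Eif2ak1 gave 707, 741, 783 and 692 units in mutant-labelled and 771, 768, 751 and 763 in Wildtype arrays, which overlap, with a log2 difference of -0.06 (SE 0.085).

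Of 6 detected genes within 0.1 Mb of Tfr2, Pcolce and Pop7 passed the unadjusted threshold and none the adjusted one. Pcolce, which encodes an enhancer of procollagen processing and lies 0.017 Mb from Tfr2, gave 65.6, 73.0, 61.8 and 72.4 units in mutant-labelled and 101, 103, 92.4 and 80.0 in Wildtype arrays. Every mutant-labelled value was below every Wildtype value, close to the detection limit and with 3 of 4 mutant-labelled arrays detected. The Pcolce probe was thus kept through the Wildtype arrays alone. Its log2 difference was -0.46 (SE 0.109; unadjusted p = 0.0015, limma adjusted p = 0.197). Pop7, a protein of the RNase P and RNase MRP complexes, gave 400, 417, 336 and 323 units against 276, 336, 313 and 232, a difference of 0.36 (SE 0.135; unadjusted p = 0.0235, limma adjusted p = 0.337) with overlap. The brightest probe of Actl6b, the neuronal subunit of the BAF chromatin remodelling complex, differed by -0.00 (SE 0.190), Gnb2, a G protein beta subunit, by -0.04 (SE 0.096), Mospd3 by -0.14 (SE 0.140) and Agfg2 by 0.24 (SE 0.168). None of those 4 passed even the unadjusted threshold. The other 3 detected Actl6b probes differed by 0.01 to 0.28.

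Beyond the called probes, small differences were more frequent among the neighbours of Tfr2 than over the array. At an unadjusted p under 0.05, the threshold used by the study without multiple testing correction, 38 of 187 member probes passed (20.3%), against 12.7% of all detected probes. Of these, 26 were higher in mutant-labelled brain (13.9% of members; 6.72% of all detected probes) and 12 were lower (6.42% of members; 6.02% of all detected probes). Brat1 among the higher and Taf6 ILMN_1241137, Clip2 and Pcolce among the lower met the filter only through the group in which they are high. With detection required on all 8 arrays, 34 of 174 member probes passed, 25 higher and 9 lower. That is 19.5%, against 12.6% of all probes so filtered. Every mutant-labelled array lay above or every mutant-labelled array lay below all Wildtype arrays for 28 member probes (14.97%), 19 higher and 9 lower, against 7.85% of all detected probes. Without Brat1, Cnpy4 and the called Taf6 probe, 35 of 184 probes passed the unadjusted threshold and 25 did not overlap. The differences were small, with a median size of 0.15 on the log2 scale among members and 0.12 over all detected probes, and 4 members exceeded 1.5-fold in the fit, 3 up and 1 down. Neighbouring genes are not independent replicates, and these shares are descriptions. In bulk brain tissue, fewer cells of a type and less RNA per cell cannot be told apart.

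The direction of these small differences depended on the scaling. In the average-normalized table, 34 members passed, 14 higher and 20 lower, or 18.2% of members against 16.5% of all detected probes, whose median moved from -0.00 to -0.09 on the log2 scale. Both tables shared 25 of the 38 probes, all 25 in the same direction. Without Wildtype replicate 4 the members passing numbered 25 (13.4%, against 9.44% of all detected probes).

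The rest of chromosome 5 had fewer such probes than the array as a whole. Beyond 10 Mb from Tfr2, 44 of 522 detected probes passed the unadjusted threshold (8.43%), 24 did not overlap (4.60%) and 0 passed the adjusted threshold (limma). Between 10 and 20 Mb away 6 of 107 probes passed (5.61%), and further than 20 Mb 38 of 415 (9.16%). Around Hfe, the other mutated gene, on chromosome 13, 24 of 59 detected probes within 10 Mb passed the unadjusted threshold (40.7%) and 10 passed the adjusted one, all higher in mutant-labelled brain. Those called include the detected Hfe probe itself. Unlike the members, the sets around Hfe and beyond 10 Mb from Tfr2 left no genes aside by symbol. At the edges of the window the nearest detected genes inside were Slc15a4, 9.94 Mb below Tfr2, with log2 differences of 0.25 and 0.24 on its 2 probes, and Flt1, 9.97 Mb above it, at -0.41. The nearest outside were Tmem132c, just over 10 Mb below, at -0.06, and Pomp, 10.27 Mb above, at 0.19.

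**Figure D2:**
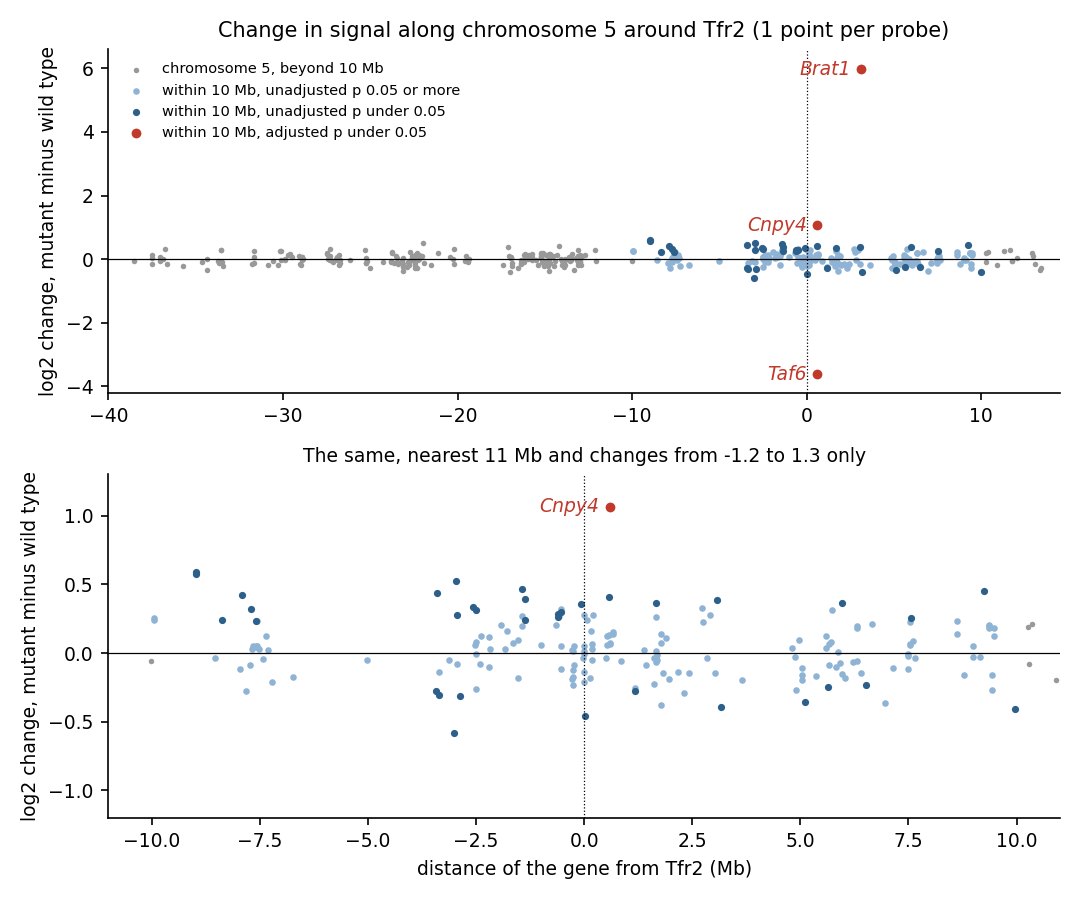
Log2 change (Hfe-/-xTfr2mut minus Wildtype) of detected probes against the distance of their gene from Tfr2 in Mb, negative towards lower coordinates. Probes of genes left aside by symbol within 10 Mb of Tfr2, such as Actb and Hspb1, are not drawn. The upper panel runs from 40 Mb below Tfr2 to the chromosome's end and the lower panel enlarges the window; Brat1, Cnpy4 and 1 Taf6 probe stand apart, at fitted values of 5.97, 1.07 and -3.63, of which the first and the last are against signal below detection and give no size.

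In the tested probes the share past the unadjusted threshold was 13 of 74 probes (17.6%) under 2 Mb, 12 of 37 (32.4%) from 2 to 5 Mb and 13 of 76 (17.1%) from 5 to 10 Mb. Over all detected probes it was 12.7%. The higher share at 2 to 5 Mb was not seen with no detection filter. The shares were then 15.04%, 14.1% and 13.8% of more probes, against 7.98% of all probes on the array. Single arrays moved the counts, to 10, 8 and 7 without Wildtype replicate 4 and to 18, 13 and 22 without Wildtype replicate 3, and 5 to 10 Mb held 8 without Hfe-/-xTfr2mut replicate 2. Over all detected probes the shares were then 9.44%, 17.3% and 11.4%, in that order. The size of the log2 difference and the distance from Tfr2 were related by a Spearman coefficient of 0.03 over the 187 probes, which share arrays and, in part, genes. On the side of lower coordinates 22 of 80 probes passed (27.5%, against 12.7% of all detected probes), 18 higher and 4 lower, with 0 at adjusted p. On the side of higher coordinates, which held all 3 calls, 16 of 107 passed (14.95%, against the same 12.7%), 8 higher and 8 lower. In separate bins of 2.5 Mb, the largest share was 9 of 15 probes (60%, against 12.7%), from 5 to 2.5 Mb below Tfr2. This bin was picked for its share and holds much of the Williams syndrome block. Its 9 probes include Clip2, which was kept through the Wildtype arrays alone.

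**Figure D3:**
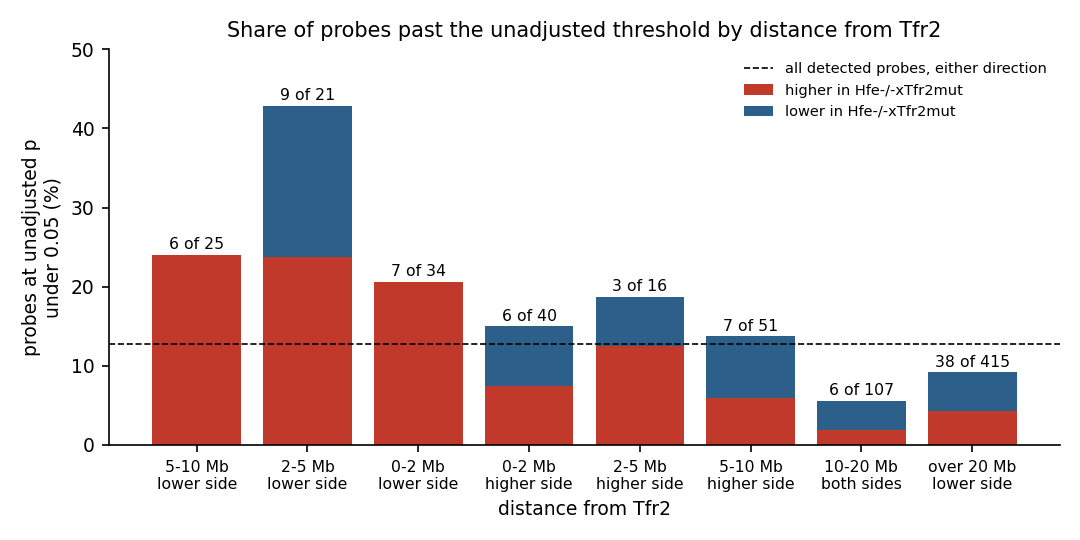
Percentage of detected probes at an unadjusted p under 0.05 (limma) in bins of distance from Tfr2, split into higher (red) and lower (blue) in Hfe-/-xTfr2mut, with counts above the bars. The dashed line is the 12.7% of all detected probes; the bar for 2 to 5 Mb on the lower side reaches 42.9% (9 of 21) and the bars beyond 10 Mb lie under the line.

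The Williams syndrome block is a run of genes whose human counterparts are lost together in that developmental disorder. Of its 14 detected genes, each read by its brightest probe, 3 were higher and 2 lower at unadjusted p, against 6.79% higher and 5.71% lower of all 8,051 detected genes, and 0 passed the adjusted threshold. Rfc2, a subunit of the clamp loader of DNA replication, gave 1562, 1985, 1594 and 1700 units in mutant-labelled and 970, 1164, 1350 and 1297 in Wildtype arrays. All 4 mutant-labelled arrays were above all Wildtype arrays, with a log2 difference of 0.52 (SE 0.126; unadjusted p = 0.00175, limma adjusted p = 0.197). Abhd11, a mitochondrial hydrolase gene, gave 1088, 1078, 1122 and 1012 units against 741, 916, 844 and 915, again without overlap, a difference of 0.34 (SE 0.098; limma adjusted p = 0.256). The third higher gene was the leukocyte adaptor gene Lat2 at 0.28 (SE 0.123; limma adjusted p = 0.388), whose groups overlap.

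Clip2 and Limk1 were the lower genes of the block. Clip2, which encodes a microtubule-binding linker protein, gave 48.3, 57.4, 45.1 and 58.6 units in mutant-labelled arrays and 101, 65.2, 61.6 and 90.8 in Wildtype arrays. It was detected on 0 of 4 mutant-labelled and 4 of 4 Wildtype arrays without overlap, and its mutant-labelled signal was at least 1.21-fold lower (unadjusted p = 0.00545, limma adjusted p = 0.251). It too met the filter through the Wildtype arrays alone, so that its place among the lower genes here and in the neuronal list is partly set by the filter. Limk1, the kinase that inactivates the actin-severing protein cofilin, gave 1792, 1527, 1805 and 1897 units against 2071, 2068, 2060 and 2554. The groups did not overlap, and the log2 difference was -0.32 (SE 0.110; limma adjusted p = 0.312). The brightest gene of the block, Eif4h, a helper of the translation helicase, gave 10,705 to 12,666 units in mutant-labelled and 11,281 to 13,408 in Wildtype arrays, a difference of -0.08 (SE 0.098) with overlap.

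Just outside the block, Rcc1l, a mitochondrial protein of the RCC1 family, gave 117, 148, 122 and 152 units in mutant-labelled and 103, 99.2, 94.2 and 99.5 in Wildtype arrays. It did not overlap and differed by 0.44 (SE 0.109; unadjusted p = 0.00214, limma adjusted p = 0.197). Bud23, the ribosomal RNA methyltransferase gene inside the block, has 3 detected probes that did not run together. One gave 551 to 682 units in mutant-labelled and 476 to 535 in Wildtype arrays without overlap, a log2 difference of 0.31 (SE 0.098; limma adjusted p = 0.286), and the other 2 differed by -0.26 (SE 0.228) and 0.08 (SE 0.110). For Gtf2ird2, a transcription factor gene, 1 of 2 detected probes was lower at unadjusted p, by -0.31 (SE 0.117; limma adjusted p = 0.342).

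Members of the synapse and neuron list leaned lower. Of 26 such members 22 were detected, and 5 were lower and 0 higher at unadjusted p (5.71% and 6.79% of all detected genes). A negative difference was seen in 17 of the 22 and in 49.9% of all detected genes, and the median log2 difference was -0.16, against 0.00 for all 8,051 detected genes. The lower genes are Clip2 and Limk1 above, Slc29a4, Lmtk2 and Castor2. The roles given here for Lmtk2 and Castor2 are not particular to neurons, and the lists were chosen with earlier results of these data known. Slc29a4, a transporter of monoamines, gave 459, 624, 506 and 529 units in mutant-labelled and 589, 655, 739 and 722 in Wildtype arrays, a difference of -0.36 (SE 0.119; limma adjusted p = 0.297) with overlap at 1 mutant-labelled array. Lmtk2, a kinase of the endosomal pathway, gave 3357 to 3642 units against 3781 to 4439 without overlap, a difference of -0.23 (SE 0.091; limma adjusted p = 0.344). Castor2, of a family that regulates the growth kinase complex mTORC1, differed by -0.27 (SE 0.109; limma adjusted p = 0.344) with overlap. The brightest member of the list, Ywhag, a 14-3-3 protein gene, differed by 0.07 (SE 0.102).

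The count of lower genes in the synapse and neuron list was 5 in the average-normalized table too, with a median of -0.27 against -0.09 for all probes. It moved between 2 and 6 when single arrays were left out, with 2 without Wildtype replicate 4 and 3 without Hfe-/-xTfr2mut replicate 2 or without Wildtype replicate 2. It was 3 with the replicate block, and the median was -0.095 without Hfe-/-xTfr2mut replicate 2. Of 6 general neuron markers, 4 were detected on all 8 arrays and 2 (Nefl and Snap25) on none, and 1 of the 4 (Syt1) was lower at unadjusted p. Their summed signal was 29,107 to 32,574 units in mutant-labelled and 29,533 to 36,627 in Wildtype arrays. The part of neuron content in the lower values was not tested.

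The listed genes of transcription and RNA processing split both ways. The list leaves out Prkrip1 and Zfp11, which were both higher and are described below. Of 20 detected genes, 3 were higher and 2 lower at unadjusted p, 1 of them the called Taf6 probe, against 6.79% and 5.71% of all detected genes, with a median of 0.08. That Taf6 probe was kept through the Wildtype arrays alone, and the Taf6 probe detected on all 8 arrays differed by 0.07. With detection required on all 8 arrays, 3 of 18 genes were higher and 1 lower. The 3 higher genes became 1 without Hfe-/-xTfr2mut replicate 1 or 2 or Wildtype replicate 4, and the 2 lower genes 1 without the last. Lrwd1, a partner of the origin recognition complex, was higher by 0.47 (SE 0.195; limma adjusted p = 0.363) and Bud31, a splicing factor, by 0.25 (SE 0.099; limma adjusted p = 0.344), beside Pop7. The zinc finger gene Zfp12 gave 990 to 1120 units in mutant-labelled and 1179 to 1378 in Wildtype arrays without overlap, a difference of -0.25 (SE 0.092; limma adjusted p = 0.331). In the average-normalized table the list had 0 higher and 3 lower genes. Polr1d, a subunit shared by RNA polymerases I and III and the brightest gene of the list, differed by 0.13 (SE 0.099).

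Prkrip1 and Zfp11 were in no list and stood high among the rest. The counts of transcription and RNA processing genes above therefore leave them out, although their roles come close to those of that list. Prkrip1, a protein of the spliceosome, gave 367, 362, 351 and 360 units in mutant-labelled and 253, 269, 271 and 306 in Wildtype arrays on its probe ILMN_2851889. This probe had the lowest unadjusted p after the called ones, 0.00121, with a log2 difference of 0.39 (SE 0.090; limma adjusted p = 0.193) and no overlap. The second Prkrip1 probe was higher by 0.24 (SE 0.098; limma adjusted p = 0.352), with overlap. Zfp11, a zinc finger gene 7.90 Mb from Tfr2, gave 144, 146, 123 and 148 units against 120, 97.3, 106 and 95.0, a difference of 0.43 (SE 0.108; limma adjusted p = 0.197) without overlap.

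In the list of DNA replication and repair 2 of 7 detected genes were higher at unadjusted p, Brat1 and Rfc2, and 0 lower (6.79% and 5.71% of all detected genes). Brat1 met the filter through the mutant-labelled arrays alone, so that its place among the higher genes is partly set by the filter. With detection required on all 8 arrays, which drops Brat1, 2 of 6 were higher and 0 lower. The higher genes among the 7 were 4 without Wildtype replicate 2. Zcwpw1, a reader of histone marks known from meiosis, differed by 0.28 (SE 0.126; limma adjusted p = 0.396). In translation and protein folding 1 of 18 was higher and 0 lower, near the shares of all detected genes (6.79% and 5.71%), or 3 and 1 without Wildtype replicate 3. The higher gene, Sumf2, of the family of sulfatase-modifying factors, gave 504 to 582 units in mutant-labelled and 395 to 488 in Wildtype arrays without overlap, a difference of 0.32 (SE 0.10; limma adjusted p = 0.286). Get4, which helps to insert tail-anchored proteins into membranes, has 4 detected probes with differences of -0.07 to 0.36, only 1 of them past the unadjusted threshold.

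Among 16 detected signalling genes 5 were higher and 2 lower at unadjusted p, against 6.79% and 5.71% of all detected genes, or 2 higher and 3 lower in the average-normalized table. The 5 higher genes became 2 without Hfe-/-xTfr2mut replicate 1 or 2 or Wildtype replicate 1 or 4, and 3 without Hfe-/-xTfr2mut replicate 3 or 4 or with the replicate block. Fzd10, a receptor for Wnt ligands 8.97 Mb from Tfr2, was higher on both of its probes, by 0.58 (SE 0.205; limma adjusted p = 0.319) and 0.59 (SE 0.249; limma adjusted p = 0.369). The brighter of these gave 87.0, 173, 117 and 152 units in mutant-labelled and 76.0, 76.0, 110 and 85.6 in Wildtype arrays, so that the lowest mutant-labelled array lay within the Wildtype range. Fis1, which recruits the mitochondrial fission machinery, was higher on both probes without overlap, by 0.28 (SE 0.111; limma adjusted p = 0.344) and 0.26 (SE 0.097; limma adjusted p = 0.332). Its brighter probe gave 6008 to 6732 units in mutant-labelled and 4323 to 5794 in Wildtype arrays. Fis1 is counted among the 5 higher genes of the list, although the role given here for it is not one of signalling. The adhesion receptor gene Adgrd1, Lat2 and the Ras-like gene Rasl11a were the other higher genes, and Lamtor4, the brightest of the list and a part of the lysosomal Ragulator complex, differed by 0.15 (SE 0.089).

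Gna12 and Flt1 were the lower signalling genes. Flt1, a receptor for vascular endothelial growth factor that marks endothelium, gave 1055, 1153, 1456 and 1002 units in mutant-labelled and 1625, 1452, 1540 and 1513 in Wildtype arrays. One mutant-labelled array reached the Wildtype range, and the difference was -0.41 (SE 0.122; unadjusted p = 0.00661, limma adjusted p = 0.266). Flt1 is itself 1 of 4 endothelial markers on the array, of which 2 were detected on all 8 arrays and none was without any detection. Tek, detected on all 8 arrays, was also lower at unadjusted p, by -0.56 (SE 0.176). Slco1a4 was lower at unadjusted p too, by a fitted -0.92 (SE 0.267). It was detected on 1 of 4 mutant-labelled and 4 of 4 Wildtype arrays. Slco1a4 thus met the filter through the Wildtype arrays alone, and its fitted value is no measure of size. The 4 markers summed to 1250 to 1877 units in mutant-labelled and 1895 to 2147 in Wildtype arrays. Flt1 made up most of each sum, so that the sums largely repeat the Flt1 values. The part of endothelial content in the lower Flt1 signal was not tested.

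Vesicle traffic and cytoskeleton genes showed 2 higher and 0 lower of 22 detected, Ap4m1 and Iqce, near the shares of all detected genes (6.79% and 5.71%). The higher genes numbered 6, with 2 lower, without Wildtype replicate 3, 5 without Hfe-/-xTfr2mut replicate 3 and 1 without Hfe-/-xTfr2mut replicate 4 or Wildtype replicate 1. Ap1s1, the small subunit of the AP-1 coat, was higher by 0.30 on 1 of 3 probes without overlap (SE 0.094; limma adjusted p = 0.286), whereas the others differed by 0.05 (SE 0.098) and 0.32 (SE 0.177). The bright members Arpc1a, of the Arp2/3 complex, and Bri3 differed by -0.12 (SE 0.132) and 0.21 (SE 0.103). In metabolism and extracellular matrix 0 of 11 were higher and 1, Pcolce, was lower (6.79% and 5.71% of all detected genes), or 2 lower without Hfe-/-xTfr2mut replicate 2 or Wildtype replicate 1. Pcolce met the filter through the Wildtype arrays alone. With detection required on all 8 arrays, 0 of 10 genes of this list were higher and 0 lower. The citric acid cycle enzyme gene Mdh2 differed by 0.16 (SE 0.111), Nipsnap2, of a mitochondrial protein family, by -0.28 (SE 0.133) and the chondroitin sulfotransferase gene Chst12 by 0.28 (SE 0.135). Of the 6 CYP3A members, drug-metabolising enzymes of liver and gut, 0 were detected.

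**Figure D4:**
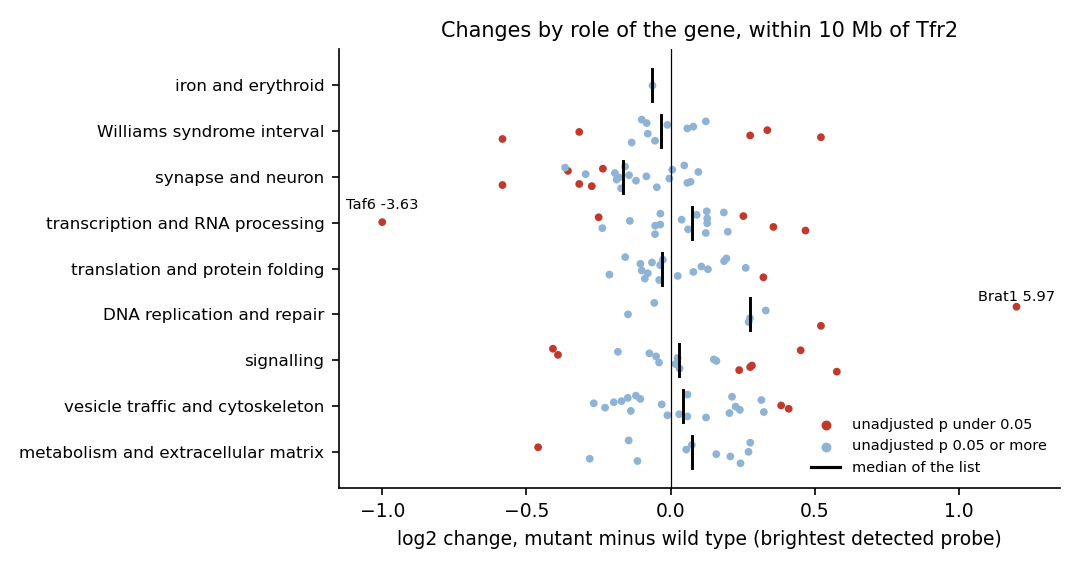
Log2 change (Hfe-/-xTfr2mut minus Wildtype) of the brightest detected probe of each gene, 1 row for each role list, with genes at an unadjusted p under 0.05 (limma) in red and the list median as a bar. Taf6 and Brat1 are drawn at the edge with their values; in the synapse and neuron row 17 of 22 points lie below 0.

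Probes of 1 gene did not always move together. Of 35 members with 2 or more detected probes, 24 had the same sign on all of them. In 11 genes at least 1 probe passed the unadjusted threshold, and in 3 of these, Prkrip1, Fis1 and Fzd10, all probes did. In 4 genes, Taf6, Bud23, Gpr146 and Fam220a, the probes differed by over 0.5 on the log2 scale.

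**Figure D5:**
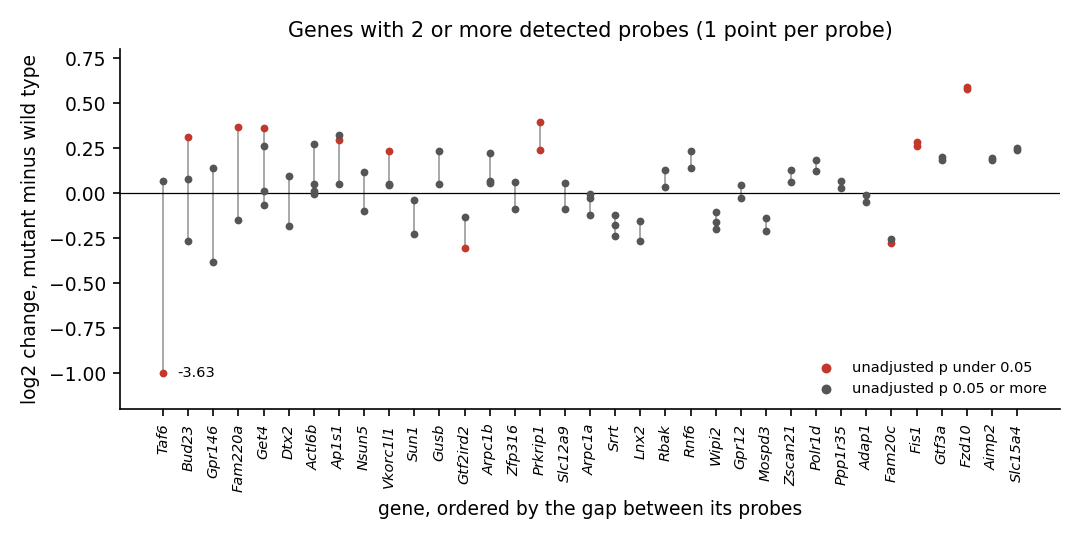
Log2 change (Hfe-/-xTfr2mut minus Wildtype) of every detected probe of the 35 members with 2 or more, joined by a line for each gene and ordered by the gap between probes; red points are at an unadjusted p under 0.05 (limma). The lower Taf6 probe, at -3.63, is drawn at the edge and the 2 Fzd10 probes nearly coincide.

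Detection followed the group in few members. Of 349 member probes 174 were detected on all 8 arrays and 134 on none, and 187 met the filter of detection on every array of at least 1 group, in 141 of the 231 genes. Only Brat1 was detected on 4 mutant-labelled and 0 Wildtype arrays, and only Clip2 and 1 Taf6 probe on 0 mutant-labelled and 4 Wildtype arrays. Members that were not detected have no tested value.

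Over the whole array, 11,188 to 11,751 probes were detected on mutant-labelled and 11,568 to 12,192 on Wildtype arrays, and Pearson's r between arrays across 10,576 probes was 0.975 to 0.994 within and 0.967 to 0.992 across groups. Defining markers of astrocytes (5 of 5), oligodendrocytes (5 of 5) and microglia (4 of 4) were detected on all arrays. The summed pituitary hormone signal ranged from 66.5 to 25,439 units among mutant-labelled and from 33.7 to 5867 among Wildtype arrays. The red blood cell markers were higher in mutant-labelled brain at unadjusted p for 2 of 3 genes on the array. Of these 2 genes, Hba-a1 was detected on all arrays. Hbb-b2 was detected on 4 mutant-labelled and 3 Wildtype arrays, and met the filter only through the group in which it is high. The part of the pituitary and red blood cell differences in the members' values was not tested.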

How the data were processed

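Total RNA of whole brain from 4 Hfe-/-xTfr2mut and 4 Wildtype mice was hybridised to 8 arrays of 1 MouseRef-8 v2 BeadChip. The authors subtracted background in GenomeStudio and deposited intensity values without normalization, after Average and after Cubic Spline normalization, the last of which is used here. The deposited tables hold a detection p-value beside each intensity. Groups were taken from the sample titles and the labels describe 4 mice per group.

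Probes were placed by Entrez identifier or accession in RefSeq (GRCm38.p6), which named 23,971 of 25,697; 7 kept the platform's name and 1719 had none. Probes with a detection p under 0.01 in all arrays of at least 1 group were kept (11,204), signals under 10 set to 10, log2 taken, and limma 3.58.1 in R 4.3.3 fitted with 2 groups and Benjamini-Hochberg adjustment over all probes kept. Lists use the brightest detected probe of a gene. Folds against undetected signal use each array's lowest detected signal. The number of arrays limits the precision. The scripts were tested on simulated data.

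The members, lists and tests were chosen with earlier results of these data known. Named genes are Tfr2; members past adjusted p with their other probes; the 12 others of lowest unadjusted p without overlap; up to 3 of lowest p and the brightest in each role list; detected genes within 0.1 Mb of Tfr2; and members detected in 1 group only. Further genes were named after their values were seen. Alternatives were the Average table, quantile normalization, neqc, floors of 1 and 30, other detection filters, a replicate block, BeadChip position, array weights, other windows, and each array left out. Matching proteins and probe sequences were not used here.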

Additional observations from a re-analysis of the deposited data

Results flagged for a closer look

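In 80 groups of 4 arrays, those of the named probes, the array farthest from the rest was compared with the spread of the group by Dixon's criterion, which chance meets in about 1 of 20 groups. It was met 3 times. For the Brat1 probe ILMN_2605630, Wildtype replicate 3 gave 17.64 intensity units and the others -1.10 to 1.83, all below detection. For Zfp11, Hfe-/-xTfr2mut replicate 3 gave 122.6 units against 144 to 148 in the other mutant-labelled arrays. For Limk1, Wildtype replicate 4 gave 2554 units against 2060 to 2071.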

How the results depend on the processing

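The calls of Brat1 and Taf6 ILMN_1241137 were kept under each alternative that tested them. The 3 calls became 1 (Cnpy4) where detection on all 8 arrays was required, which drops both others, and 7 with array weights, which added Pcolce, Prkrip1, Rfc2 and Zfp11. Over all detected probes the calls rose too with array weights, from 19 to 118. The member calls were 0 without Brat1, Taf6 and Cnpy4, an alternative chosen after seeing the data. Leaving out single arrays gave 2 to 3 calls. Cnpy4 was lost with no filter (limma, adjusted p = 0.229), without 2 single arrays and with the replicate block. The 38 members past unadjusted p became 25 in a 5 Mb window (of 111 probes) and 25 to 53 when single arrays were left out. There were 25 without Wildtype replicate 4 (13.4%, against 9.44% of all detected probes). There were 53 without Wildtype replicate 3 (28.3%, against 17.3% of all detected probes). The median of members moved from 0.03 to -0.074 in the Average table, where that of all probes was -0.09, and was 0.01 to 0.05 without single arrays.

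The replicate numbers did not pair the arrays: deviations of same-numbered arrays correlated at 0.13, -0.14, -0.40 and 0.11, and 2 of 4 numbers matched their own best. With the replicate number as a block, limma called 2 members at adjusted p, and Cnpy4 had an adjusted p of 0.070. At unadjusted p it called 32 (17.1%, against 10.1% of all detected probes).

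Values near 0 changed sign. Taf6 ILMN_1252302 became -0.080 in the Average table. Actl6b became 0.0078 with BeadChip position and ranged from -0.11 to 0.19 without single arrays. Gnb2 ranged from -0.087 to 0.0023 without single arrays, and was above 0 without Hfe-/-xTfr2mut replicate 2 or Wildtype replicate 2. All other named values kept their direction. The cause of these changes was not tested beyond the probes dropped. Weak signals near the detection limit, such as Clip2 and Pcolce, have bounds or less certain sizes.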
